A study of Sus scrofa with 67 samples.

Results

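The endometrium and the oviduct of gilts were compared at day 9 of the oestrous cycle, gene by gene, in 6 of the 66 RNA sequencing libraries of the count table. The members are the 3 endometrium and the 3 oviduct libraries that the sample labels place at day 9, and all genes were tested in 1 fit. The gilts, which are young female pigs, were not pregnant and were Landrace × Yorkshire crossbreds of 6 to 8 months, and day 0 was the onset of oestrous behaviour. Endometrium was dissected free of the underlying muscle from the middle of a uterine horn, and oviduct tissue was taken from the ampulla. Each library is poly-A RNA of a whole piece of tissue, so a gene that is lower in a tissue may have fewer cells that express it or less RNA per cell, and these cannot be told apart here. Total counts were between 9252196 and 10098430 per library. A count of 3, taken as the lowest detectable level, corresponded to between 0.297 and 0.324 counts per 1000000 counts of the library (CPM). Between 17144 and 17552 genes had a count in a library.

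In the pig, day 9 lies in the luteal phase, when corpora lutea secrete progesterone. Under progesterone the glands of the endometrium secrete the proteins and nutrients that would feed an early embryo, and the stroma and surface epithelium prepare for attachment. The oviduct carries gametes and the early embryo, moved by beating cilia and by the smooth muscle of its wall, and its secretory cells release oviductin into the lumen. Both organs grow from the same embryonic duct, the Müllerian duct, along which HOX genes mark the position of each segment.

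The tissues differed across much of the transcriptome. Of 14517 genes tested with the quasi-likelihood test of edgeR, 7227 (49.8%) had an adjusted p under 0.05 and are referred to as called. The endometrium was higher for 3447 of them (23.7% of the genes tested) and the oviduct for 3780 (26%). A difference of at least 1 on the log2 scale, or a doubling, was seen for 1830 genes called higher in the endometrium and 2548 called higher in the oviduct. At 5 on the log2 scale the numbers were 99 and 152. The median absolute log2 fold change of the called genes was 1.24, and the median over all tested genes was 0.005. For 8817 genes (60.7%) the 3 libraries of one tissue lay wholly above those of the other, the endometrium above for 29.7% and the oviduct for 31%. The counts of list members below are read against these shares.

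**Figure D1:**
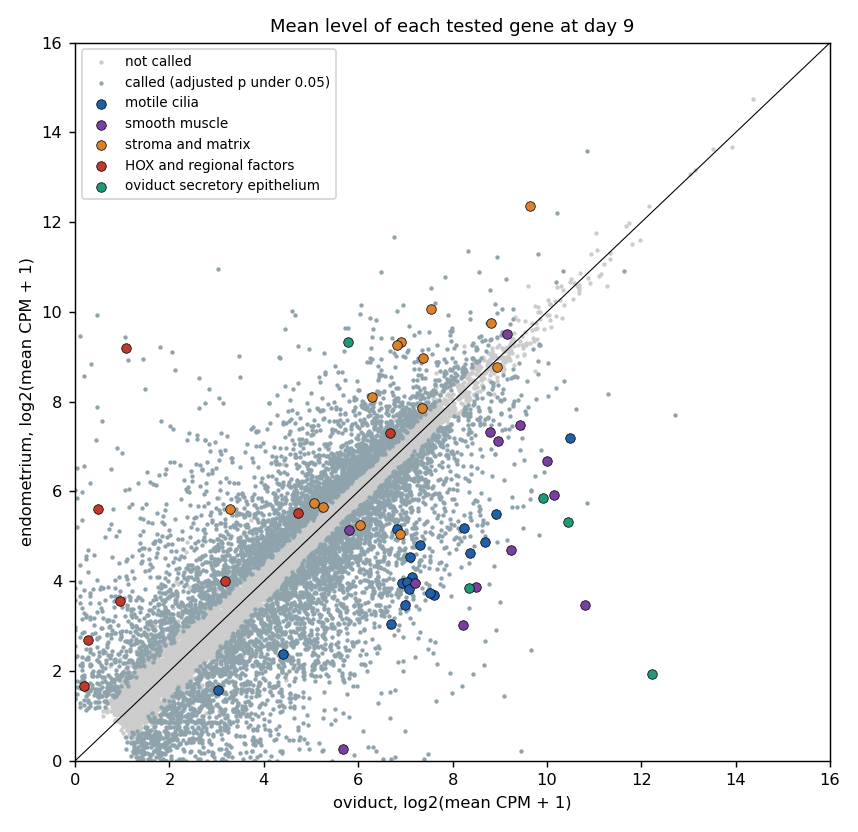
Mean level of each tested gene at day 9 in the oviduct (horizontal axis) and the endometrium (vertical axis), both as log2(mean CPM + 1) of 3 libraries; grey-blue points are called genes, light grey points are not called, and members of 5 gene lists are coloured. The 18 tested cilia genes lie below the diagonal, on the oviduct side, and the HOX and regional factors lie above it.

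The genes named next are the 12 in each direction with the largest log2 fold change among called genes with a symbol, whose libraries did not overlap between tissues and which had at least 100 counts in every library of the higher tissue. In the endometrium direction 2730 genes met these conditions, and 2 without a symbol were passed over before the 12 were reached. In the oviduct direction 2735 genes met them, and 11 without a symbol were passed over.

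**Figure D2:**
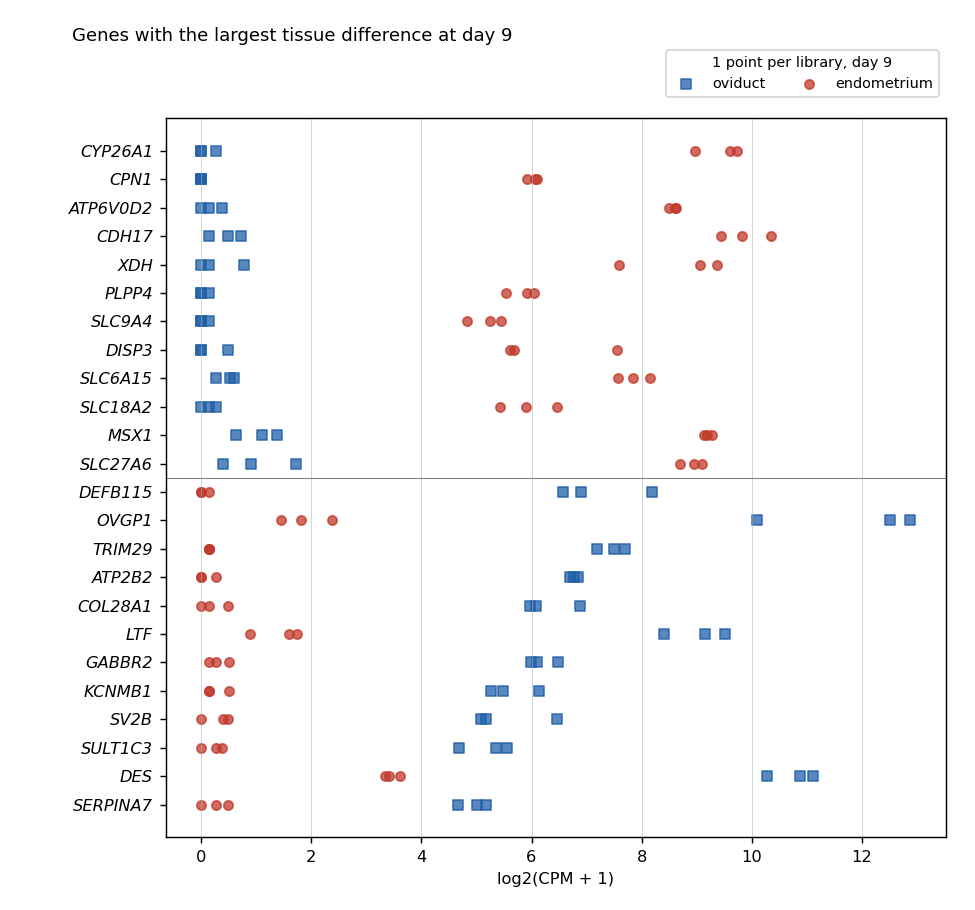
The 12 genes with the largest difference in each direction, one row per gene, with 1 point per day 9 library on a log2(CPM + 1) scale (circles, endometrium; squares, oviduct). The endometrium and oviduct points of each gene are separated by a wide gap, and OVGP1 and XDH have 1 library well below the other two of the higher tissue.

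In the endometrium the gene with the largest difference was CYP26A1, which encodes an enzyme that degrades retinoic acid. It stood at 781, 844 and 498 CPM in endometrium libraries 1, 2 and 3. In the oviduct it had 2 counts, both in library 3, a ratio of 10196 with a 95% counting interval from 2822 to 84197. CPN1, the catalytic subunit of carboxypeptidase N, stood at 67.8, 59.5 and 66.1 CPM in the endometrium and had no count in any oviduct library. It was therefore at least 206-fold higher in the endometrium, with the floor set at 3 counts per library. CDH17, a cadherin best known from intestinal epithelium, stood at 905, 695 and 1310 CPM in the endometrium and at 0.104, 0.649 and 0.402 CPM in the oviduct, a log2 fold change of 11.26 ± 0.46 (SE; edgeR adjusted p = 3.21e-06). ATP6V0D2, a subunit of the proton pump that acidifies vesicles, had 360, 394 and 388 CPM in the endometrium and 1, 0 and 3 counts in the oviduct.

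A further 4 of the 12 are solute or amine carriers of the SLC families, which move small molecules across membranes. SLC27A6, a fatty acid transport protein, had 548, 496 and 413 CPM in the endometrium and 0.312, 0.865 and 2.31 CPM in the oviduct (log2 fold change 8.67 ± 0.45). SLC6A15, a carrier of neutral amino acids, had 229, 285 and 189 CPM in the endometrium and between 0.208 and 0.503 CPM in the oviduct (9.21 ± 0.29). SLC18A2, the vesicular monoamine transporter, had 58.4, 41.9 and 87.1 CPM in the endometrium and 3 counts in all in the oviduct, a ratio of 599 (counting interval 205 to 2909). For each of these carriers the lowest endometrium library was far above the highest oviduct library. SLC9A4, a sodium and proton exchanger, had 27.6, 42.7 and 37.0 CPM in the endometrium against 1 count in all in the oviduct, a ratio of 1034 (185 to 40866).

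XDH, xanthine dehydrogenase of purine breakdown, was less even, with 533, 658 and 191 CPM in the endometrium and 0.104, 0 and 0.704 CPM in the oviduct (log2 fold change 10.63 ± 0.81). DISP3, of the Dispatched family, had 50.2, 47.7 and 186 CPM in the endometrium, where library 3 was the high one, and 4 counts in all in the oviduct (log2 fold change 9.29, and 8.34 without endometrium library 3). PLPP4, a phospholipid phosphatase, had 45.5, 59.6 and 65.0 CPM against 1 oviduct count, a ratio of 1639 (294 to 64756). MSX1, a homeobox transcription factor, had 585, 560 and 622 CPM in the endometrium and 1.14, 0.541 and 1.61 CPM in the oviduct (9.04 ± 0.27). The few oviduct counts of these 12 genes were uneven between libraries. Oviduct libraries 1, 2 and 3 held 22, 23 and 66 of them, and library 3 held the most for 8 of the 12 genes. Without oviduct library 3 the log2 fold change was 12.50 for ATP6V0D2, 12.77 for XDH, 12.83 for DISP3 and 9.67 for SLC27A6. All 12 genes kept their call without any 1 library.

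In the oviduct the leading gene with a symbol was DEFB115, a beta-defensin, which belongs to a family of antimicrobial peptides. It had 93.6, 291 and 119 CPM in the oviduct and 1 count in all in the endometrium, in library 3, a ratio of 4858 (counting interval 872 to 191926). OVGP1, oviductin, which coats the oocyte and early embryo, had 1098, 7537 and 5841 CPM in the oviduct and 4.21, 2.51 and 1.73 CPM in the endometrium (log2 fold change −10.74 ± 0.94, endometrium minus oviduct; edgeR adjusted p = 7.97e-05). Oviduct library 1 was the low one, and the log2 fold change without it was −11.21. LTF, the iron-binding antimicrobial protein lactoferrin, had 565, 732 and 337 CPM in the oviduct and 0.842, 2.01 and 2.34 CPM in the endometrium (−8.28 ± 0.45). These 3 genes encode secreted proteins, and each had its lowest oviduct library far above its highest endometrium library.

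The other oviduct genes included proteins of membranes and of muscle. TRIM29 had 144, 207 and 180 CPM in the oviduct and 1 count in each endometrium library, a ratio of 1726 (590 to 8375). ATP2B2, a calcium pump of the plasma membrane, had 113, 103 and 108 CPM in the oviduct and 2 counts in the endometrium, both in library 2, a ratio of 1587 (439 to 13112). GABBR2, a subunit of the GABA-B receptor, had 67.1, 88.2 and 62.2 CPM in the oviduct and 0.421, 0.201 and 0.102 CPM in the endometrium. The highest oviduct library of each of these 3 genes was less than 1.5 times the lowest. DES, the intermediate filament of muscle, had 2201, 1888 and 1246 CPM in the oviduct and 11.3, 9.13 and 9.66 CPM in the endometrium (−7.47 ± 0.29). KCNMB1, the beta subunit of the calcium-activated potassium channel of smooth muscle, had 69.3, 43.8 and 37.2 CPM in the oviduct and 0.421, 0.100 and 0.102 CPM in the endometrium (−7.85 ± 0.46). COL28A1, SV2B, SULT1C3 and SERPINA7 completed the 12, at log2 fold changes between −8.80 and −7.12. Without 1 library the value moved to −10.30 for COL28A1 (endometrium 3), −8.78 for GABBR2 (endometrium 1), −8.77 for KCNMB1 (endometrium 1), −7.08 for SV2B (oviduct 1), −8.31 for SULT1C3 (endometrium 3) and −8.01 for SERPINA7 (endometrium 2), and all 12 genes kept their call.

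Genes detected in one tissue and hardly at all in the other were counted as those with at least 10 counts in every library of a tissue and at most 3 in every library of the other. There were 205 of them, 68 in the endometrium and 137 in the oviduct. With the minimum raised to 100 counts there were 11 and 21. The 8 with a symbol in the endometrium were ATP6V0D2, SLC9A4, SPOCK3, CYP26A1, CPN1, PLPP4, IL31RA and SLC18A2. In the oviduct the 8 with a symbol were CRB2, a cell polarity protein, DEFB115, TRIM29, C4BPA, an inhibitor of complement, SCN9A, a sodium channel, WFIKKN2, ATP2B2 and SULT1C3. Among genes with an identifier only, ENSSSCG00000002981 had 908, 203 and 983 CPM in the oviduct and 5 counts in all in the endometrium. ENSSSCG00000021692 had 101, 103 and 69.1 CPM in the endometrium and 1 count in the oviduct.

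The gene groups that follow are 15 lists of markers and pathway genes with 220 symbols, of which 146 could be paired with an identifier in the table and 127 passed the filter on low counts. Their counts stand against the background of 49.8% of all genes called, 23.7% in the direction of the endometrium and 26% in that of the oviduct.

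**Figure D3:**
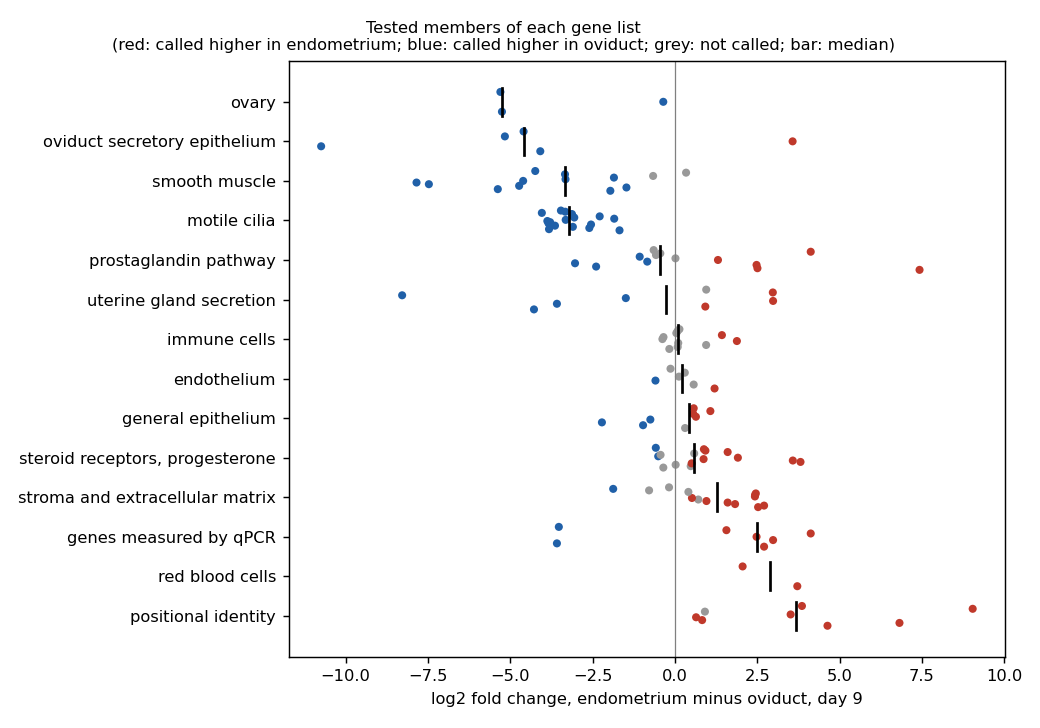
Log2 fold change (endometrium minus oviduct, day 9) of each tested member of 14 gene lists, with the list's median as a black bar; red members were called higher in the endometrium, blue in the oviduct, and grey members were not called. The cilia list lies wholly on the oviduct side, and 11 of the 13 smooth muscle members were called higher in the oviduct.

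Genes of motile cilia were higher in the oviduct. Of 32 symbols, 18 were paired and tested, and 18 of 18 were called higher in the oviduct, against 26% of all genes, with a median log2 fold change of −3.22 (−4.04 to −1.68) against 0.005 over all genes. FOXJ1, the transcription factor that starts the motile cilium programme, had 1358, 1506 and 1457 CPM in the oviduct and 192, 179 and 63.1 CPM in the endometrium (−3.32 ± 0.40, edgeR adjusted p = 0.000318). TEKT1, a protein of the axoneme's microtubule walls, had 171, 220 and 194 CPM in the oviduct and 14.2, 16.5 and 4.88 CPM in the endometrium (−4.04 ± 0.39). DNAH9, a motor protein of the outer dynein arms, had 385, 438 and 402 CPM against 37.7, 31.9 and 16.1 CPM (−3.84 ± 0.30).

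The dynein arms, their assembly factors and the regulators of ciliary beat followed the same direction. DRC1, of the dynein regulatory complex, had 159, 180 and 208 CPM in the oviduct and 15.5, 13.3 and 8.55 CPM in the endometrium (−3.87 ± 0.23). ZMYND10, needed to assemble dynein arms, had 429, 481 and 550 CPM against 58.0, 53.9 and 20.7 CPM (−3.46 ± 0.37). CCDC39, a ruler protein of the axoneme, showed the smallest difference, with 114, 150 and 72.9 CPM against 32.5, 35.03 and 37.5 CPM (−1.68 ± 0.25). No cilia gene was at 0 in either tissue. The summed level of the 18 genes was 4287, 4689 and 4621 CPM in the oviduct and 593, 548 and 262 CPM in the endometrium, where library 3 was the low one. Without endometrium library 3 the FOXJ1 value was −2.95, and 18 of 18 genes were called without any 1 library.

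Of the markers of oviduct secretory epithelium, 5 of 10 were tested, and 4 were called higher in the oviduct. Beside OVGP1 these were SPP1, the secreted phosphoprotein osteopontin, with 1581, 1594 and 1038 CPM in the oviduct and 41.1, 34.6 and 41.8 CPM in the endometrium (−5.16 ± 0.23). WT1, a transcription factor of the urogenital tract, had 319, 363 and 285 CPM against 15.0, 10.9 and 14.0 CPM (−4.60 ± 0.17). C3, the central complement component, varied among the oviduct libraries, at 847, 292 and 1757 CPM, and was at 70.4, 53.2 and 46.7 CPM in the endometrium (−4.09 ± 0.62, and −3.33 without oviduct library 3). PAX2, a transcription factor of Müllerian and renal epithelium that the list counts for the oviduct, went the other way, with 621, 709 and 596 CPM in the endometrium and 59.4, 47.8 and 54.7 CPM in the oviduct (3.57 ± 0.15).

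Genes of uterine gland secretion in the luteal phase were divided. Of 19 symbols 8 were tested, 3 were called higher in the endometrium and 4 in the oviduct, and their median was −0.28. PIGR, the receptor that carries immunoglobulin A across epithelium, had 31.7, 24.4 and 33.4 CPM in the endometrium and 3.74, 2.06 and 5.53 CPM in the oviduct (2.97 ± 0.33). IGF1, a growth factor of the uterine stroma, had 31.6, 29.1 and 47.0 CPM against 4.36, 2.16 and 7.04 CPM (2.98 ± 0.39). FOXA2, the transcription factor of uterine glands, had 128, 101 and 127 CPM against 53.3, 55.4 and 78.6 CPM (0.92 ± 0.18).

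The members higher in the oviduct were LTF, CST6, HSD11B1 and IGFBP5. HSD11B1, which converts cortisone to cortisol, had 151, 146 and 127 CPM in the oviduct and 13.1, 9.34 and 12.8 CPM in the endometrium (−3.58 ± 0.17). CST6, a cysteine protease inhibitor, had 86.5, 59.3 and 103 CPM against 3.79, 4.92 and 4.07 CPM (−4.28 ± 0.25). RBP4, the retinol carrier, was not called, with 53.4, 29.3 and 21.1 CPM in the endometrium and 17.3, 8.44 and 27.9 CPM in the oviduct, ranges that overlap (edgeR adjusted p = 0.132, and 0.0444 without oviduct library 3).

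The HOX genes and regional transcription factors leaned to the endometrium. Of 20 symbols 8 were tested, and 7 were called higher in the endometrium, against 23.7% of all genes, with a median of 3.68. HOXA11, which marks the uterine segment of the Müllerian duct, had 45.2, 44.1 and 55.1 CPM in the endometrium and 0.104, 0 and 1.11 CPM in the oviduct (6.82 ± 0.60, and 9.51 without oviduct library 3). HOXA10, its neighbour in the cluster, had 3.997, 5.12 and 7.22 CPM in the endometrium and 6 counts in all in the oviduct (4.63 ± 0.59). HOXD10 had 9.26, 10.4 and 12.6 CPM against 1.04, 0.433 and 1.31 CPM (3.51 ± 0.36). HOXB5 and HOXB6 were higher in the endometrium by less than a doubling, at 0.83 ± 0.21 and 0.64 ± 0.15 on the log2 scale. HOXD9, the neighbour of HOXD10, was not called, with 14.2, 13.4 and 17.8 CPM in the endometrium and 7.69, 2.49 and 13.9 CPM in the oviduct (edgeR adjusted p = 0.168, and 0.0266 without oviduct library 3). LHX1, an early factor of the Müllerian duct, failed the filter on low counts, with no count in the endometrium and 37, 21 and 9 counts in the oviduct. HOXC10 failed it too, with no count in the endometrium and 11, 0 and 19 counts in the oviduct. Without the filter 7 list members were called higher in the endometrium and 1 in the oviduct. With all endometrium and oviduct libraries in the fit the numbers were 6 and 2.

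Receptors and partners of the steroid hormones were unequal. Of 15 tested genes, 8 were called higher in the endometrium and 2 in the oviduct, with a median of 0.58. The nuclear receptors themselves were close. PGR, the progesterone receptor, had 25.4, 29.0 and 18.8 CPM in the endometrium and 18.7, 18.2 and 12.0 CPM in the oviduct (0.58 ± 0.24, edgeR adjusted p = 0.0703). ESR1, the oestrogen receptor alpha, had 715, 759 and 585 CPM against 489, 599 and 390 CPM (0.48 ± 0.19, edgeR adjusted p = 0.0628). The ranges of ESR1 overlapped between the tissues, and those of PGR nearly touched. In the fit that paired libraries by number as a replicate block, both were called higher in the endometrium, with edgeR adjusted p = 0.025 for PGR and 0.0229 for ESR1. Without endometrium library 3 both were also called (edgeR adjusted p = 0.0323 and 0.0373), and ESR1 was called without oviduct library 2 (0.0275). NR3C1, the glucocorticoid receptor, was not called with all libraries and was called higher in the oviduct without oviduct library 2 (edgeR adjusted p = 0.0461).

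The larger differences lay around the receptors. GPER1, a membrane oestrogen receptor, had 91.6, 107 and 111 CPM in the endometrium and 8.31, 4.76 and 8.95 CPM in the oviduct (3.81 ± 0.24, edgeR adjusted p = 1.23e-05). IHH, the hedgehog ligand that uterine epithelium makes under progesterone, had 169, 74.7 and 77.9 CPM against 12.4, 7.57 and 6.94 CPM (3.58 ± 0.40). PTCH1, its receptor, had 153, 118 and 121 CPM against 79.3, 65.5 and 68.3 CPM (0.88 ± 0.14). PGRMC1, a membrane component that binds progesterone, had 1733, 1515 and 1855 CPM against 681, 494 and 509 CPM (1.60 ± 0.18). The coactivators NCOA1 and NCOA2 were higher in the endometrium by 0.87 ± 0.16 and 1.91 ± 0.22. NR2F2, a stromal target of hedgehog signalling, and STAT3 were higher in the oviduct, at −0.51 ± 0.12 and −0.58 ± 0.15. Both lost their call with all endometrium and oviduct libraries in the fit (edgeR adjusted p = 0.218 and 0.134). FKBP5, a receptor chaperone, was called at 0.51 ± 0.17 (edgeR adjusted p = 0.0365) but not under the replicate block (0.0589), nor without endometrium library 1 or 3 or oviduct library 2 or 3 (0.0717 to 0.100).

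Genes of prostaglandin synthesis, breakdown and reception were divided between the tissues. Of 13 tested genes 5 were called higher in the endometrium and 4 in the oviduct. HPGD, which inactivates prostaglandins, had 286, 358 and 289 CPM in the endometrium and 0.520, 1.41 and 3.42 CPM in the oviduct (7.42 ± 0.45, and 8.33 without oviduct library 3). PTGS2, the inducible cyclooxygenase, had 31.9, 18.0 and 18.3 CPM against 0.727, 2.38 and 0.804 CPM (4.12 ± 0.46, and 4.86 without oviduct library 2). PLA2G4A, the phospholipase that frees arachidonic acid, had 96.7, 93.0 and 114 CPM against 16.3, 20.1 and 17.1 CPM (2.50 ± 0.15). The phospholipase, the cyclooxygenase and the inactivating enzyme were all higher in the endometrium in every library.

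The 4 receptors of prostaglandin E2 did not share a direction. PTGER2 was higher in the endometrium, with 23.2, 12.4 and 14.6 CPM against 4.78, 1.08 and 3.12 CPM (2.48 ± 0.47). PTGER1, PTGER3 and PTGER4 were higher in the oviduct, at −2.39 ± 0.42, −3.03 ± 0.62 and −0.84 ± 0.16. The PTGER1 value rests on 5, 3 and 8 counts in the endometrium. PTGER4 had 81.4, 111 and 85.0 CPM in the oviduct and 44.2, 54.6 and 56.1 CPM in the endometrium. The PTGER3 value was −3.82 without endometrium library 2 and −2.43 without oviduct library 1. The synthases PTGES and PTGES3 were on opposite sides, at 1.31 ± 0.38 and −1.07 ± 0.22. The call of PTGES was lost without endometrium library 3 (edgeR adjusted p = 0.065) and without oviduct library 3 (0.056). With all endometrium and oviduct libraries in the fit PTGES and PTGER4 were not called (edgeR adjusted p = 0.0592 and 0.0937).

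Smooth muscle genes were far higher in the oviduct. Of 15 symbols 13 were tested, and 11 were called higher in the oviduct, against 26% of all genes, with a median of −3.34. MYH11, the smooth muscle myosin heavy chain, had 824, 615 and 381 CPM in the oviduct and 23.4, 28.6 and 22.6 CPM in the endometrium (−4.61 ± 0.30). ACTG2, the enteric smooth muscle actin, had 390, 327 and 176 CPM against 4.42, 5.82 and 11.2 CPM (−5.38 ± 0.44). CNN1, calponin, had 470, 366 and 243 CPM against 15.7, 12.2 and 12.7 CPM (−4.73 ± 0.27). TPM1, with 776, 503 and 437 CPM in the oviduct and 756, 919 and 494 CPM in the endometrium, and SYNPO2 were not called. SYNPO2 was called without oviduct library 3 (−0.99, edgeR adjusted p = 0.0187).

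The summed level of the 13 muscle genes was 9674, 7821 and 5457 CPM in oviduct libraries 1, 2 and 3 and 1532, 1647 and 1211 CPM in the endometrium, and none was at 0 in either tissue. The oviduct libraries differed among themselves in this sum, library 1 being the highest and library 3 the lowest. The endometrium had been dissected free of the uterine muscle, and no removal of muscle is described for the oviduct. The part of muscle RNA in the other genes higher in the oviduct was not tested.

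Stroma and matrix genes were mostly higher in the endometrium, 9 of 14 tested against 1 higher in the oviduct, with a median of 1.28. COL3A1, a fibrillar collagen, had 3429, 4302 and 7966 CPM in the endometrium and 963, 638 and 804 CPM in the oviduct (2.71 ± 0.34). COL1A2, another fibrillar collagen, had 760, 887 and 1548 CPM against 188, 165 and 202 CPM (2.52 ± 0.27). PDGFRA, a growth factor receptor of fibroblasts, had 44.6, 49.9 and 48.7 CPM against 8.11, 6.49 and 11.5 CPM (2.45 ± 0.21). LUM, MMP2, COL5A1, COL6A3, DCN and FN1 were also called higher in the endometrium, at 0.52 to 2.43, FN1 only narrowly, since it lost its call without endometrium library 2 or 3 or oviduct library 2 or 3 (edgeR adjusted p between 0.0521 and 0.0625). TNC, tenascin C, was higher in the oviduct, with 145, 53.9 and 154 CPM against 28.1, 25.7 and 42.2 CPM (−1.87 ± 0.40). Endometrium library 3, low for the cilia genes, was the high one for this list, with a summed level of 13905 CPM against 7640 and 8680 CPM in libraries 1 and 2. Without it COL3A1 stood at 2.28. POSTN, periostin, had 16.7, 66.2 and 29.0 CPM in the endometrium and 45.8, 106 and 40.9 CPM in the oviduct, ranges that overlap (edgeR adjusted p = 0.268), and was called higher in the oviduct under the replicate block (edgeR adjusted p = 0.0126).

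General epithelial genes were divided, with 4 of 8 tested called higher in the endometrium and 3 in the oviduct. EPCAM, CLDN4 and ELF3 were higher in the oviduct, at −0.75 ± 0.14, −0.97 ± 0.15 and −2.22 ± 0.40, and KRT18, GRHL2 and ESRP1 in the endometrium, at 1.08 ± 0.25, 0.56 ± 0.14 and 0.64 ± 0.12. CDH1, epithelial cadherin, had 185, 169 and 189 CPM in the endometrium and 124, 105 and 210 CPM in the oviduct, and was not called (edgeR adjusted p = 0.322, and 0.00497 without oviduct library 3). The fourth epithelial gene called in the endometrium, KRT8, lost its call when endometrium library 1 or 2, or oviduct library 1 or 2, was left out (edgeR adjusted p between 0.0684 and 0.115).

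Markers of vessels, immune cells and blood differed little, apart from those of red cells. Of 6 endothelial genes ESAM was called higher in the endometrium (1.20 ± 0.34) and KDR in the oviduct (−0.59 ± 0.16). Both calls were lost without endometrium library 1 or oviduct library 1, and that of KDR also without oviduct library 3 (edgeR adjusted p between 0.0522 and 0.0574). PECAM1, which marks all endothelium, had 77.3, 78.3 and 89.0 CPM in the endometrium and 65.9, 73.5 and 85.5 CPM in the oviduct. Of 11 immune genes 2 were called higher in the endometrium and none in the oviduct, against 23.7% of all genes, and one of these was GNLY, granulysin of cytotoxic lymphocytes, with 4.94, 5.42 and 6.51 CPM against 2.29, 2.27 and 1.71 CPM (1.43 ± 0.27). The other, CD79B of B cells, lost its call without any 1 of the libraries but oviduct 3 (edgeR adjusted p between 0.0649 and 0.103), and stood at 1.88 with all libraries and 3.22 without oviduct 3. The summed level of the immune list was 103 to 117 CPM in the endometrium and 82.2 to 110 CPM in the oviduct. The red cell genes HBB, a beta globin, and ALAS2, of haem synthesis, were both higher in the endometrium, HBB with 79.7, 38.0 and 53.1 CPM against 11.1, 14.6 and 15.4 CPM (2.05 ± 0.28). The amount of blood in the pieces was not tested against the other differences.

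Markers of the ovary, a tissue not in this comparison, were also examined. Of 8 paired genes 3 were tested, and CYP11A1, INHA and GDF9 were called higher in the oviduct. CYP11A1, which starts steroid synthesis from cholesterol, had 223, 132 and 177 CPM in the oviduct and 5.05, 5.12 and 3.76 CPM in the endometrium (−5.25 ± 0.25). INHA, the alpha subunit of inhibin, had 20.4, 9.19 and 8.14 CPM against 0, 0.201 and 0.712 CPM (−5.30 ± 0.73, and −6.76 without endometrium library 3). GDF9, an oocyte growth factor, was called by a small margin at −0.35 ± 0.12, and lost its call under the replicate block and without any 1 library but oviduct 3 (edgeR adjusted p between 0.0638 and 0.103). FSHR, of granulosa cells, and ZP3, of oocytes, had no count in any of the 6 libraries, and CYP17A1 had 18, 7 and 32 counts in the oviduct. The part of ovarian tissue in these values was not tested.

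A list of 11 genes taken from qPCR measurements on these samples had 7 genes tested, and all 7 were called, 5 higher in the endometrium and 2 in the oviduct, against a background of 49.8%. The list was chosen on these samples, so it is not independent evidence of a direction. SGPP1 and SGPP2, phosphatases of sphingosine 1-phosphate, went in opposite directions. SGPP1 had 57.9, 58.4 and 85.0 CPM in the endometrium and 26.2, 20.6 and 21.4 CPM in the oviduct (1.56 ± 0.19). SGPP2 had 5.58, 10.8 and 4.27 CPM against 84.5, 77.6 and 76.9 CPM (−3.53 ± 0.31). UBB, a qPCR reference gene, was not called, with 2001, 1922 and 1429 CPM against 2187, 2392 and 2007 CPM.

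Whether the tissues differed at day 9 as they did at oestrus was tested by the interaction of tissue and day over the 12 libraries of days 0 and 9. Of 15227 genes tested, 4138 (27.2%) were called, 2188 (14.4%) with a difference shifted to the endometrium at day 9 and 1950 (12.8%) with one shifted to the oviduct. That balance changed with the scaling of the libraries. OVGP1 alone took 16.8%, 5.13% and 14.3% of all counts in oviduct libraries 1, 2 and 3 of day 0, and between 0.114% and 0.753% at day 9. Scaled by total count only, 1180 genes were shifted to the endometrium and 4319 to the oviduct, and the median over all genes moved from 0.003 to −0.41. With DESeq2's size factors the numbers were 2130 and 2036. Of the 3977 called genes tested on both days, 1720 were called between the tissues at day 9 and not at day 0, and 889 at day 0 and not at day 9. Another 453 were called in opposite directions on the 2 days. A missing call on a day does not show that the tissues were equal.

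Genes were named for this difference from those called in the interaction, with a symbol, no overlap of the tissues at day 9 and at least 100 counts in every day 9 library of the higher tissue. Within these limits the 5 largest shifts to the endometrium were those of CDH17, CILP2, CDH16, SLC26A4 and ZNF750, given here on CPM scaled over all 66 libraries. CYP26A1 and XDH were not called in the interaction. Their oviduct counts at day 9 were few, 0, 0 and 2 for CYP26A1 and 1, 0 and 7 for XDH. In the endometrium both were far lower at day 0 than at day 9, by the means given below. Of the other days CYP26A1 passed the filter on low counts on 2 and XDH on 1. The absence of a call therefore does not show that their tissue difference was unchanged. CDH17 had 3.17, 2.19 and 1.35 CPM in the endometrium of day 0 and 5.91, 5.199 and 5.38 CPM in the oviduct. At day 9 it had 837, 644 and 1244 CPM in the endometrium and at most 0.591 CPM in the oviduct, so its tissue order was turned around (difference of the log2 fold changes 12.61 ± 0.55, edgeR adjusted p = 3.13e-07). CDH16, another cadherin, had 1.99, 1.92 and 2.71 CPM in the endometrium of day 0 and 17.6, 22.8 and 21.4 CPM in the oviduct, and at day 9 92.5, 135 and 164 CPM against 3.76, 0.394 and 7.42 CPM (8.30 ± 0.80, and 9.18 without oviduct library 3 of day 9).

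SLC26A4, the anion exchanger pendrin, was near 1 CPM in both tissues at day 0, with 0.997, 0.262 and 1.10 CPM in the endometrium and 1.45, 0.743 and 1.59 CPM in the oviduct. At day 9 it had 436, 513 and 599 CPM in the endometrium and 0.376, 0 and 8.35 CPM in the oviduct (8.12 ± 1.62, and 11.97 without oviduct library 3 of day 9). CILP2 and ZNF750, an epithelial zinc finger factor, were called higher in the oviduct at day 0 and in the endometrium at day 9, at 8.78 ± 0.75 and 8.04 ± 0.44. Without endometrium library 3 of day 0 they stood at 9.90 and 8.64.

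The shifts to the oviduct, within the same limits, were led by MMP7, a matrix metalloproteinase of glandular epithelium. It had 380, 260 and 202 CPM in the endometrium of day 0 and 0.334, 2.41 and 0.399 CPM in the oviduct. At day 9 it had 0.779, 0.929 and 0.193 CPM in the endometrium and 12.2, 19.5 and 38.4 CPM in the oviduct, the reverse order (−13.14 ± 0.93, edgeR adjusted p = 8.47e-06, and −14.68 without oviduct library 2 of day 0). SOD3, the extracellular superoxide dismutase, had 158, 494 and 134 CPM in the endometrium of day 0 against 10.8, 9.66 and 9.56 CPM in the oviduct, and 6.72, 3.90 and 3.57 CPM against 15.5, 15.2 and 20.04 CPM at day 9 (−6.53 ± 0.67, and −5.68 without endometrium library 2 of day 0).

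UPK1B, a uroplakin of epithelial surfaces, had 483, 88.4 and 155 CPM in the endometrium of day 0 and 71.1, 142 and 155 CPM in the oviduct, ranges that overlap. At day 9 it had 0.876, 1.39 and 1.74 CPM against 69.2, 27.7 and 135 CPM (−6.80 ± 1.07, −5.79 without endometrium library 1 of day 0 and −6.14 without oviduct library 3 of day 9). TRIM29 and DEFB115 were higher in the oviduct on both days, and in the endometrium they went from 160, 56 and 45 counts and from 23, 13 and 9 counts at day 0 to 3 counts and 1 count in all at day 9. Their values of −6.61 and −7.26 rest on those few counts, and were −5.77 for TRIM29 without endometrium library 1 of day 0 and, for DEFB115, −9.14 without endometrium library 3 and −6.59 without oviduct library 2 of day 9.

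**Figure D4:**
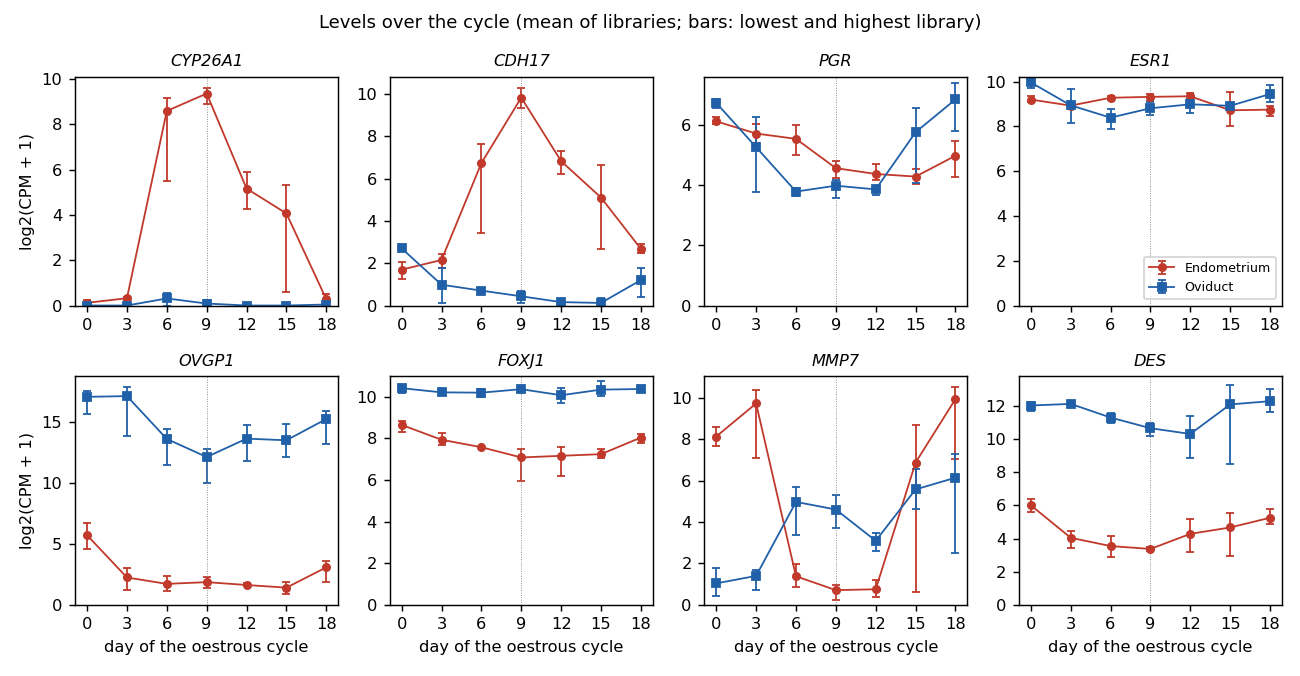
Levels of 8 genes in the endometrium (circles) and oviduct (squares) over the 7 sampled days, as log2(CPM + 1) of the mean, with bars from the lowest to the highest library (2 to 4 per point); the dotted line marks day 9. CYP26A1 and CDH17 peak at day 9 in the endometrium, and the order of the tissues for MMP7 and PGR is not the same on every day.

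Gene lists moved between days 0 and 9 in some cases. CPM values compared between days, here and below, are scaled over all 66 libraries, so day 9 levels differ somewhat from those above. For cilia genes 11 of 18 had a difference shifted to the oviduct at day 9 and none to the endometrium, against 12.8% of all genes, and DRC1 was shifted by −1.74 ± 0.36. FOXJ1 had a mean of 399 ± 72.8 CPM (SD, n = 3) in the endometrium at day 0 and of 134 ± 64.7 CPM at day 9, and of 1359.5 ± 185 and 1315 ± 75.6 CPM in the oviduct. The number of shifted cilia genes was 13 with total count scaling and 8 with the replicate block. Of 14 matrix genes 7 were shifted to the endometrium and none to the oviduct, COL6A3 by 1.89 ± 0.18, and these numbers were 4 and 2 with total count scaling and 3 and 0 with all endometrium and oviduct libraries in the fit.

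Of 15 steroid hormone genes 7 were shifted to the endometrium, against 14.4% of all genes, and 2 to the oviduct. The numbers were 4 and 3 with total count scaling and 3 and 0 with all endometrium and oviduct libraries in the fit. PGR was higher in the oviduct at day 0, with means of 106 ± 11.5 (SD, n = 3) against 68.8 ± 6.81 CPM, and its difference was shifted to the endometrium by 1.26 ± 0.27 (edgeR adjusted p = 0.0047), a call that was lost with all endometrium and oviduct libraries in the fit (edgeR adjusted p = 0.193). ESR1 showed the same, with means of 1002 ± 130 CPM in the oviduct and 589 ± 54.8 CPM in the endometrium at day 0 and a shift of 1.29 ± 0.25. GPER1 was shifted by 2.66 ± 0.34. IGF1 was higher in the oviduct at day 0, with 30.3 ± 2.49 against 10.04 ± 2.33 CPM, and in the endometrium at day 9, a shift of 4.62 ± 0.47.

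Other list members moved too. HPGD was near the detection floor in both tissues at day 0, with means of 0.947 CPM in the endometrium and 0.487 CPM in the oviduct, and was shifted by 6.50 ± 1.28 (between 5.81 and 7.49 without 1 library). TPM1, not called at day 9, was shifted to the endometrium by 4.23 ± 0.38. LTF, HSD11B1 and EPCAM were shifted to the oviduct, by −4.48 ± 1.07, −2.82 ± 0.28 and −1.36 ± 0.18. The LTF value was −3.58 without endometrium library 1 of day 0. Of 11 immune genes none was shifted to the endometrium and 3 were shifted to the oviduct, against 12.8% of all genes. The number shifted to the oviduct was 6 with total count scaling, 5 with the replicate block and 0 with all endometrium and oviduct libraries in the fit.

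The same test between the tissues was made on each of the other sampled days. The number of called genes was 5801 (39.7%) at day 0, 4918 (33.5%) at day 3, 6063 (40.7%) at day 6, 6417 (43.7%) at day 12, 4871 (33.7%) at day 15 and 3137 (21.5%) at day 18. The share of all genes called higher in the endometrium lay between 9.05%, at day 18, and 23.7%, at day 9, and that called higher in the oviduct between 12.5% and 26% on the same days. The libraries per tissue differed, from 2 in the oviduct at day 6 to 4 at days 12 and 15, and the differences between these numbers were not tested. Of the 7227 genes called at day 9, 4836 (66.9%) were called in the same direction at day 6 and 4752 (65.8%) at day 12. At day 0 the number was 3137 (43.4%), and at day 18 it was 2109 (29.2%). The opposite direction was called for 453 of the genes at day 0, for 5 at day 6 and for 43 at day 12. On all 7 days 1137 genes were called in the same direction, 294 higher in the endometrium and 843 higher in the oviduct. At day 9 and on no other day 668 genes were called, 372 higher in the endometrium and 296 in the oviduct.

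**Figure D5:**
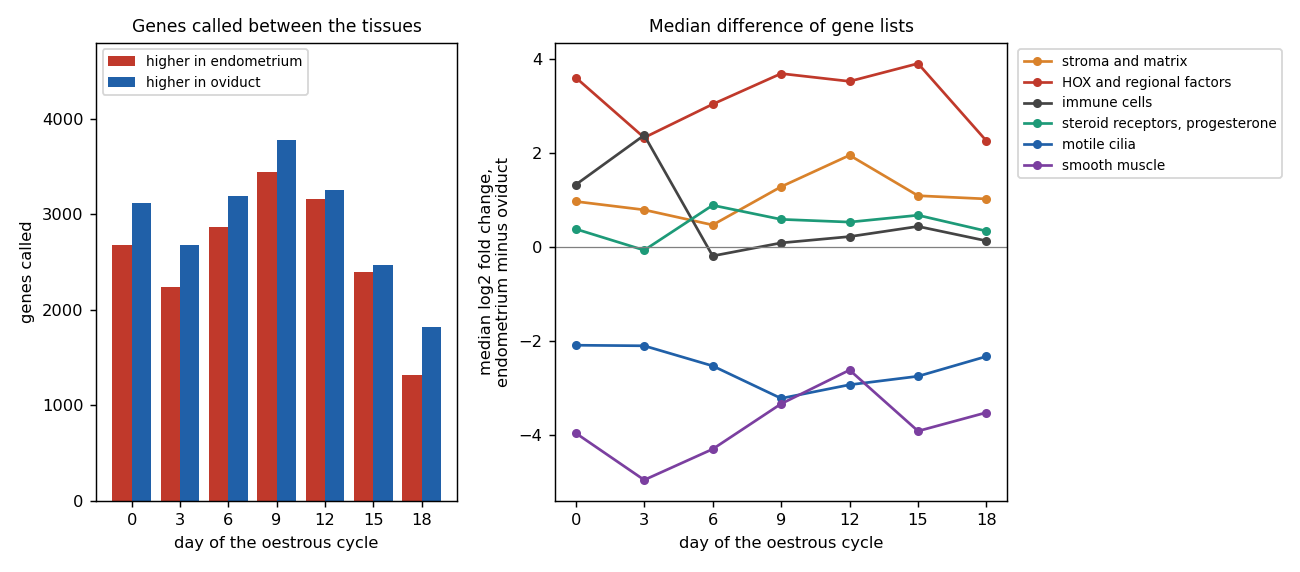
Left, number of genes called higher in the endometrium (red) and in the oviduct (blue) on each sampled day; right, median log2 fold change (endometrium minus oviduct) of 6 gene lists on each day. The cilia and smooth muscle lists stay below 0 on all 7 days, the HOX list stays above 0, and the immune list is above 1 on days 0 and 3 only.

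The cilia genes were called higher in the oviduct for 18 of 18 members on every day but day 18, when 17 were. Their median was between −3.22, at day 9, and −2.09, at day 0. The smooth muscle list had between 10 and 13 of 13 members called higher in the oviduct and none in the endometrium on any day. For the immune list 8 of 11 members were called higher in the endometrium at day 0 (18.4% of all genes) and 10 at day 3 (15.2%), against 1 or 2 on each of the other days.

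Of the 12 leading endometrium genes, 7 were called in the same direction on all 6 other days, and of the 12 leading oviduct genes 8 were. Among all 7227 day 9 calls the number was 1137. Some genes fell short only because they failed the filter on some days. These were CYP26A1 (called on 2 of 2 tested days), COL28A1 (4 of 4), SV2B (5 of 5) and SULT1C3 (2 of 2). DISP3 was called on 4 of 5, SLC27A6 on 5 of 6, TRIM29 on 4 of 6 and XDH on 0 of 1. CDH17 was called on 3 of 6 and in the opposite direction on 1. CYP26A1 in the endometrium had means of 0.0855 CPM at day 0 and 0.25 CPM at day 3, then 387 CPM at day 6, 659 CPM at day 9, 34.98 CPM at day 12 and 0.211 CPM at day 18. In the oviduct its mean was at most 0.241 CPM on any day. XDH had a mean of 428 CPM in the endometrium at day 9, of 97.6 ± 158 CPM (SD, n = 3) at day 6 and of at most 1.34 CPM on the other days. OVGP1 in the oviduct had means of 134671 CPM at day 0 and 140753 CPM at day 3, and day 9 was the lowest of the 7 days, with 4415 ± 3052 CPM (SD, n = 3). It was called higher in the oviduct on each of them. MSX1 was likewise higher in the endometrium on all 7 days, with means from 177 CPM at day 18 to 550 CPM at day 9.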

How the data were processed

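The deposited table holds whole-number counts per Ensembl gene, which the authors made by mapping paired-end reads with TopHat2 to Sus scrofa 10.2 and by counting with featureCounts, as named in the submitters' processing notes. The labels give a stranded kit and the methods another, and the strand setting of the counting is not given in the sources used here, so overlapping genes may share reads. Of 25322 identifiers, 46.6% were paired with a symbol. Its columns were assigned by tissue and day, with the library number of the column.

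The 6 libraries were fitted with edgeR 4.0.16 in R 4.3.3 (filterByExpr, TMM, robust glmQLFit, glmQLFTest, Benjamini-Hochberg adjustment, threshold 0.05). The SE of a log2 fold change was taken as its size over the square root of the F statistic. The study's own tests used FPKM with Cuffdiff. Each of the other days was fitted alone, and days 0 and 9 were fitted together for the interaction. CPM values use TMM scaling, over the 6 libraries for day 9 alone and over all 66 libraries where days are compared. Counting intervals are exact 95% intervals of a ratio, and intervals and floors cover counting error only, since reads carry no molecular identifiers. The gene lists, the rule for named genes (12 per direction at day 9, 5 per direction for the interaction, and called list members) and the comparison were chosen with earlier results of these data known. In simulated counts with the day 9 means, 92 of 100 4-fold and 35 of 100 2-fold changes were recovered with 10 false calls among 14322 genes. For the interaction 61 and 19 of 100 were recovered with 0 false calls among 15038 genes. In each simulation only 100 genes per size of change were altered, a far smaller share than was called in the data (49.8% and 27.2%). The Benjamini-Hochberg adjustment depends on that share, so these numbers do not give the recovery in the data themselves.

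The chi-squared statistic per degree of freedom between libraries of a group was 13.8 to 32.4, and 0 pairs were identical. The study took its tissues from 3 gilts a day. Deviations from the group means correlated at 0.139, 0.149 and 0.131 between the endometrium and oviduct libraries of the same number (14590 genes). Between different numbers they correlated at −0.0838 to −0.04. Deviations from a mean cancel within a group, so these negative values follow from the positive ones and are no separate evidence. No label states a pairing. The numbers were taken to pair the libraries, and the number was used as a block in an alternative. Other alternatives were DESeq2 1.42.0, its size factors, total count scaling, no filter, all endometrium and oviduct libraries in 1 fit, a fold threshold (glmTreat, log2 1) and leaving out each library. Genes are given by symbol or identifier, with no coordinates. Python 3.11.15 was used for summaries and figures.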

Additional observations from a re-analysis of the deposited data

Results flagged for a closer look

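The difference between endometrium and oviduct was itself different at day 9 from day 0 for 4138 genes, by the interaction term of the edgeR fit over 12 libraries. The values below are the log2 fold change at day 9 minus that at day 0. Among the genes named for the size of that change it was 12.61 for CDH17, 8.78 for CILP2, 8.30 for CDH16, 8.12 for SLC26A4 and 8.04 for ZNF750. It was −13.14 for MMP7, −7.26 for DEFB115, −6.80 for UPK1B, −6.61 for TRIM29 and −6.53 for SOD3. Of these, CDH17, CILP2, CDH16, ZNF750, MMP7 and SOD3 were called in opposite directions on the 2 days. SOD3 lost its day 9 call with all endometrium and oviduct libraries in the fit (edgeR adjusted p = 0.123).

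List members whose tissue difference changed between the days, and that are named for it, were GPER1 at 2.66, PGR at 1.26, ESR1 at 1.29, COL6A3 at 1.89, TPM1 at 4.23, IGF1 at 4.62 and HPGD at 6.50 towards the endometrium. DRC1 at −1.74, LTF at −4.48, HSD11B1 at −2.82 and EPCAM at −1.36 changed towards the oviduct. The call of PGR was lost with all endometrium and oviduct libraries in the fit (edgeR adjusted p = 0.193). These 11 were singled out of the lists after their values were seen.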

How the results depend on the processing

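The number of genes called at day 9 stayed within 1.5 times of 7227 under DESeq2, its size factors, total count scaling, no filter, the larger fit and the replicate block (7055 genes, 3333 higher in the endometrium and 3722 in the oviduct). With a fold threshold of 1 on the log2 scale it was 2804 (1070 and 1734), since that test asks for a larger difference. Leaving out 1 library gave 6178 to 7069 genes (2898 to 3329 and 3280 to 3740). The interaction with all endometrium and oviduct libraries in the fit called 2516 genes (1364 and 1152), and with total count scaling 1180 shifted to the endometrium and 4319 to the oviduct. Leaving out 1 library it called 3330 to 3990 (1830 to 2082 and 1500 to 1908). In the fit of all libraries 3296 of the day 9 calls had the same direction at day 18, against 2109 with that day fitted alone. The cause was not tested for any of these. Genes detected in 1 tissue numbered 11 and 21 with at least 100 counts, 9 and 25 against 0 counts, and 80 to 100 and 158 to 180 when 1 library was left out, where fewer libraries must pass.

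Of 1742 values of 134 genes at day 9 under the alternatives, 1658 kept direction and side of the threshold, 73 lost the call, 11 gained it and none changed direction. Of 378 values of 21 genes for the interaction 377 kept both, and PGR lost its call in the fit of all libraries (edgeR adjusted p = 0.193). That larger fit accounted for 14 of the lost calls, and most of the others came from the fold threshold or from leaving out a library. Among those 14 were HOXB6, PTGES, PTGER4, CLDN4 and HBB at day 9 (edgeR adjusted p between 0.0545 and 0.0937). FKBP5, KRT8, FN1, KDR and GDF9 were also among them (edgeR adjusted p between 0.173 and 0.380). Among list members the replicate block changed the calls of FKBP5, PGR, ESR1, POSTN and GDF9. Calls that depended on single libraries are given beside their genes in the results. Genes near 3 counts in a library could not be compared between tissues at this depth.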

Other observations

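Genes whose symbols share a prefix were counted after the data were seen, for prefixes with at least 15 tested genes. Of 32 tested genes named CFAP, for cilia and flagella associated protein, 31 were called higher in the oviduct and none in the endometrium, with a median log2 fold change of −3.09. CFAP206, at −4.40, had the largest difference, and CFAP36 was the one not called. Examples of other prefixes with more genes higher in the oviduct were LRRC (19 of 32, against 6 higher in the endometrium), CEP, of centrosomal proteins (16 of 30, against 1), TTC (12 of 23, against 2), FAM (35 of 84, against 13), CCDC, of coiled-coil proteins (27 of 67, against 14), and MAP (14 of 39, against 2).

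Examples on the endometrium side were ZDHHC, of palmitoyl transferases (9 of 15, against 2 higher in the oviduct), ATP, of ion pumps and ATPases (20 of 49, against 7), VPS, of vesicle sorting (11 of 29, against 2), and RAB, of vesicle traffic GTPases (12 of 34, against 3). The 211 tested SLC carriers held 80 higher in the endometrium and 58 higher in the oviduct. Of 161 ZNF genes 114 were not called. The share of all genes called was 49.8%, 23.7% higher in the endometrium and 26% higher in the oviduct. The prefixes were not tested, and the median over all tested genes was 0.005.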
